A study of Mus musculus with 11 samples.

Results

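The matrix metalloproteinases (MMPs) and their tissue inhibitors (TIMPs) were followed in bulk RNA-seq of whole liver. The 10 members were Timp1, Timp2, Timp3, Mmp2, Mmp9, Mmp13, Mmp14, Mmp15, Mmp19 and Mmp23, taken by gene symbol from a table of raw counts that lists 46603 genes. A further 17 MMP and TIMP genes of the table were used for comparison. The livers came from male Lep ob/ob mice, which lack leptin, fed the AMLN diet (rich in fat including trans-fat, fructose and cholesterol) from 5 to 6 weeks of age. Both groups carried the mutation and stayed on the diet throughout, so that no lean or chow-fed control is part of the comparison. Vehicle mice (n = 7) received the carboxymethylcellulose carrier, and INT-767 mice (n = 4) received 10 mg/kg INT-767 by oral gavage once daily for 8 weeks. INT-767 is a bile acid analog that activates the nuclear receptor FXR and the membrane receptor TGR5. Per the labels the tissue was from the left lateral lobe, and each library was taken as 1 mouse.

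MMPs are zinc-dependent proteases that cleave collagens, laminins, proteoglycans and other matrix proteins, and most are made as inactive proenzymes. TIMPs bind the active site and block them, and in chronic liver injury stellate cells, myofibroblasts, macrophages and endothelial cells are known sources of both. Because activation and inhibition act on the protein, transcript levels give supply and not protease activity.

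Total counts ranged from 7381211 to 16022459 per library, and from 7966963 to 15295230 in the vehicle group. Levels are given as CPM, the count of a gene scaled to a common library total, with TMM scaling, and as RPKM, which divides by exon length as well, where genes are compared with each other. By their trend on transcript length the libraries fell into sets that crossed the groups, though not evenly. In vehicle mice 1 and 7 and INT-767 mice 2 and 4 gene levels relative to the mean of all libraries fell with transcript length (Spearman's rho across genes −0.19, −0.24, −0.30 and −0.32), whereas in the other 7 libraries they rose (0.09 to 0.32). The trend on GC content partly followed the groups. Its rho was −0.06, −0.26, −0.16 and −0.24 in INT-767 mice 1 to 4. In vehicle mice 1 to 7 it was −0.43, 0.01, 0.44, 0.33, 0.36, 0.30 and −0.13. Hepatocyte markers were abundant in every liver, with summed levels of 65608 to 86272 CPM in vehicle mice and 83843 to 122319 CPM in INT-767 mice, and their most abundant gene was Alb.

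Of the 10 members, 9 passed the filter on low counts (the equivalent of about 10 counts in at least 4 mice) and 1, Mmp9, was too low to test. Mmp2 was the only tested member called lower in INT-767 livers at an edgeR adjusted p below 0.05 (quasi-likelihood test, Benjamini-Hochberg over all tested genes), and none was called higher. Across all 13880 tested genes 9.72% were called in either direction, 4.68% lower and 5.04% higher, so 1 of 9 members called lower lies close to the background in a set this small. With scaling by library size only, 332 genes were called higher and 1026 lower in place of 700 and 649, and with upper-quartile factors 467 and 812, and in both Mmp14 joined Mmp2 among the members called lower. The log2 fold change was below 0 for 8 of the 9 tested members, against 50.6% of all tested genes, and its median was −0.69 against −0.01 for all genes. Several cell type marker lists, described below, had similar medians: −0.78 (macrophage), −0.77 (lymphocyte), −0.65 (cholangiocyte) and −0.63 (myofibroblast). Medians were −0.24 for sinusoidal endothelial, −0.19 for quiescent stellate, 0.03 for mesothelial, 0.31 for neutrophil and 0.55 for hepatocyte markers. The shift was thus not particular to the members. Before adjustment 5 of 9 members had a p below 0.05, all lower, against 15.6% of all tested genes lower and 32.9% in either direction. No member had groups that were fully separate, whereas 7.51% of tested genes did, 3.65% lower and 3.87% higher. In whole liver, fewer cells that make a transcript and less transcript per cell cannot be told apart.

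**Figure D1:**
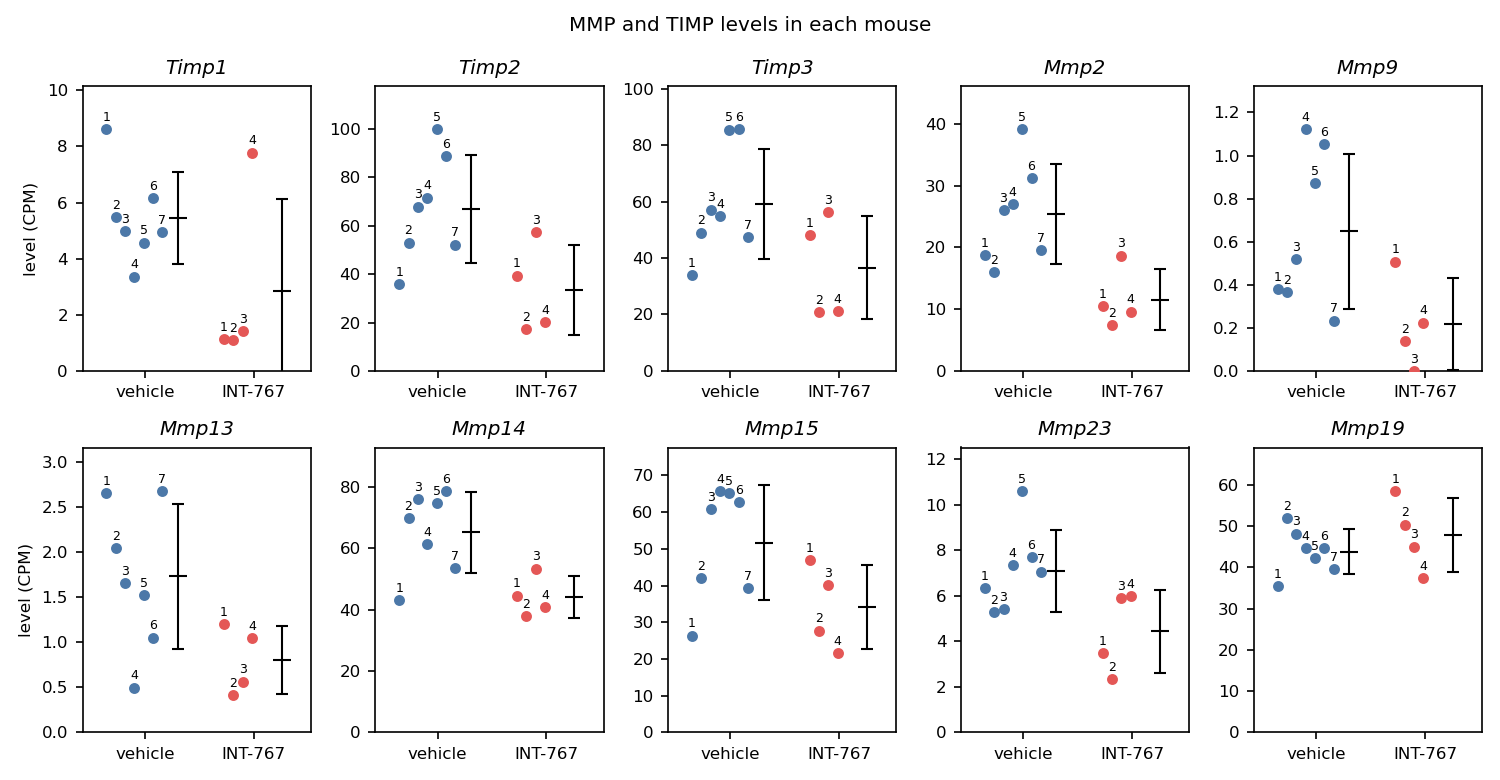
Level of each member in CPM (vertical axis, from 0, with its own scale in each panel) in the 7 vehicle (blue) and 4 INT-767 mice (red), numbered by mouse; black bars are mean ± SD. Mmp2 had 3 INT-767 mice below every vehicle mouse, INT-767 mouse 4 stood at 7.78 CPM for Timp1, and the groups overlapped for most mice in Mmp19.

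Timp1 encodes a secreted inhibitor that activated stellate cells are known to produce. Its level was 8.61, 5.49, 4.98, 3.36, 4.57, 6.15 and 4.95 CPM in vehicle mice 1 to 7, and 1.14, 1.10, 1.41 and 7.78 CPM in INT-767 mice 1 to 4. INT-767 mice 1 to 3 lay below every vehicle mouse, and INT-767 mouse 4 lay above all vehicle mice but mouse 1. Over all mice the log2 fold change was −0.87 ± 0.50 (SE, n = 4 and 7), and the difference did not pass the edgeR test (adjusted p = 0.230, exact two-sided Mann-Whitney p = 0.164). Without INT-767 mouse 4 it was −2.16 (edgeR adjusted p = 0.00303), so that 1 library decides the edgeR call. The method moved it too, since with all mice limma-voom gave −1.31 (adjusted p = 0.0884) and limma-voom with sample weights −1.65 (adjusted p = 0.0190). The summed level of 12 macrophage markers was also high in INT-767 mouse 4, at 1206 CPM against 496 to 556 CPM in the other INT-767 mice and 772 to 1095 CPM in vehicle mice. Without Lyz2, their most abundant gene, these sums were 808 CPM, 325 to 405 CPM and 584 to 812 CPM. The 10 neutrophil markers summed to 29.7 CPM in INT-767 mouse 4, to 4.22 to 9.24 CPM in the other INT-767 mice and to 11.6 to 18.2 CPM in vehicle mice, and without S100a9 to 14 CPM, 3.37 to 6.47 CPM and 8.63 to 15.2 CPM. The 8 cholangiocyte markers are dominated by Spp1, which macrophages are also known to make and which gave 92.8% of their summed level in vehicle and 93.8% in INT-767 mice. Spp1 was at 1304 CPM in INT-767 mouse 4 and at 319 to 748 CPM in the other INT-767 mice, while the other 7 cholangiocyte markers summed to 57.6 CPM in that liver, within the range of 33.2 to 64.1 CPM of the other INT-767 mice. The part of these cell types in the Timp1 level was not tested.

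Timp2 encodes an inhibitor that also takes part in the activation of pro-MMP2 at the cell surface. It measured 35.8, 53.1, 68.0, 71.6, 99.9, 88.8 and 52.2 CPM in vehicle mice 1 to 7 and 39.3, 17.2, 57.3 and 20.1 CPM in INT-767 mice 1 to 4. INT-767 mice 2 and 4 were below all vehicle mice, while INT-767 mice 1 and 3 lay within the vehicle range. The log2 fold change was −1.0 ± 0.35 (SE), which did not pass the threshold (edgeR adjusted p = 0.0826, exact Mann-Whitney p = 0.0727). Leaving out vehicle mouse 1 (−1.11, edgeR adjusted p = 0.0363) or INT-767 mouse 3 (−1.38, edgeR adjusted p = 0.0345) brought it past the threshold, as did DESeq2 (adjusted p = 0.0315) and limma-voom with sample weights (adjusted p = 0.0435) on all mice.

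Timp3 encodes the inhibitor that is held in the matrix and also blocks ADAM and ADAMTS proteases. Its level was 34.0, 49.0, 57.2, 54.9, 85.6, 85.6 and 47.3 CPM in vehicle mice and 48.1, 20.8, 56.4 and 21.2 CPM in INT-767 mice. The order of the mice was much like that for Timp2, with INT-767 mice 2 and 4 lowest and vehicle mice 5 and 6 highest. The log2 fold change of −0.69 ± 0.33 (SE) did not pass the test (edgeR adjusted p = 0.163, exact Mann-Whitney p = 0.164). Timp3 lies inside Syn3, which is on the opposite strand, and 21.3% of the exon bases of Timp3 are also exon bases of Syn3. Syn3 itself averaged 1.99 ± 1.01 CPM in vehicle and 1.13 ± 0.776 CPM in INT-767 mice (SD, n = 7 and 4), and the strand setting of the counting is not given in the sources used here.

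Mmp2 encodes gelatinase A, a secreted protease of type IV collagen and of denatured collagen. Vehicle mice 1 to 7 had 18.7, 16.0, 26.0, 27.0, 39.1, 31.2 and 19.6 CPM, and INT-767 mice 1 to 4 had 10.5, 7.45, 18.7 and 9.57 CPM. INT-767 mice 1, 2 and 4 were below every vehicle mouse, and INT-767 mouse 3 was level with vehicle mouse 1 and above vehicle mouse 2, so that the groups overlapped only there. The mean was 25.4 ± 8.07 CPM in vehicle and 11.6 ± 4.92 CPM in INT-767 mice (SD), a log2 fold change of −1.14 ± 0.30 (SE, edgeR adjusted p = 0.0331). The exact two-sided Mann-Whitney p was 0.0121, where the smallest that 4 against 7 mice allow is 0.00606, and it was 0.106 after adjustment over all tested genes. The direction held with any 1 mouse left out, with log2 fold changes from −1.45 to −0.99, but the call was kept in only 4 of 11 such fits. The edgeR adjusted p was 0.0534, 0.131 and 0.0818 without INT-767 mouse 1, 2 and 4, and 0.0565, 0.0604, 0.0608 and 0.0673 without vehicle mouse 3, 4, 5 and 6. The myofibroblast markers, among the known sources of Mmp2, summed to 96.7 to 432 CPM in vehicle mice and 41.5 to 98.0 CPM in INT-767 mice. Col1a1 gave 67.2% of that sum in vehicle and 27.5% in INT-767 mice, and without it the sums averaged 76.9 and 53.1 CPM, with ranges of 59.2 to 98.8 and 37.7 to 74.1 CPM that overlapped. The part of these cells in the Mmp2 difference was not tested.

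Mmp9 encodes gelatinase B, which neutrophils and macrophages are known to carry. The libraries held 3, 5, 5, 9, 12, 13 and 4 Mmp9 counts in vehicle mice and 8, 1, 0 and 3 counts in INT-767 mice, 63 in all. Only 2 of 11 mice reached 10 counts, and the 0 in INT-767 mouse 3 allows a level of up to 0.422 CPM (3 counts, counting error only). The vehicle median was 0.519 CPM and the INT-767 median 0.181 CPM. The exact Mann-Whitney p was 0.0424, but a rank test of such counts also ranks sampling noise. When every gene with at least 1 count was fitted, Mmp9 had a log2 fold change of −1.29 (edgeR adjusted p = 0.252). Neutrophil markers were scarce as well, with 7 of 10 too low to test and a summed level of 11.6 to 18.2 CPM in vehicle and 4.22 to 29.7 CPM in INT-767 mice.

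Mmp13 encodes the main interstitial collagenase of rodents, which cleaves fibrillar collagen. Its level was 2.66, 2.05, 1.66, 0.498, 1.52, 1.05 and 2.68 CPM in vehicle mice, and 1.21, 0.414, 0.562 and 1.05 CPM in INT-767 mice. All INT-767 mice lay below the vehicle median, but vehicle mice 4 and 6 were within the INT-767 range. These values rest on 3 to 46 counts per library, and the log2 fold change of −1.02 ± 0.44 (SE) did not pass the test (edgeR adjusted p = 0.134, exact Mann-Whitney p = 0.0727).

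Mmp14 encodes the membrane-anchored protease that activates pro-MMP2 together with TIMP2. It measured 43.0, 69.7, 76.0, 61.3, 74.7, 78.7 and 53.6 CPM in vehicle mice and 44.6, 37.8, 53.4 and 40.9 CPM in INT-767 mice. Vehicle mouse 1 alone fell within the INT-767 range, and the other 6 vehicle mice exceeded every INT-767 mouse. The log2 fold change was −0.56 ± 0.18 (SE), the smallest SE of the members with a negative value, and missed the threshold (edgeR adjusted p = 0.0666, exact Mann-Whitney p = 0.0242, 0.138 after adjustment over all tested genes). Without vehicle mouse 1 it passed (−0.64, edgeR adjusted p = 0.0200), and with all mice it passed in DESeq2 (adjusted p = 0.0240) and limma-voom with sample weights (adjusted p = 0.0304). By the exact Mann-Whitney test before adjustment 23.5% of all tested genes reached p below 0.05, as did Mmp2, Mmp9 and Mmp14 of the 10 members.

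Mmp15 encodes a second membrane-anchored MMP. Its level ran from 26.3 to 65.8 CPM in vehicle mice (26.3, 41.9, 60.8, 65.8, 65.1, 62.7 and 39.3) and from 21.6 to 47.0 CPM in INT-767 mice (47.0, 27.7, 40.2 and 21.6). Vehicle mice 3 to 6 were above all INT-767 mice, and the other vehicle mice were among them. The log2 fold change was −0.60 ± 0.28 (SE, edgeR adjusted p = 0.158, exact Mann-Whitney p = 0.164).

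Mmp23 encodes a membrane-bound MMP that is released by cleavage near its amino terminus. It measured 6.33, 5.27, 5.40, 7.35, 10.6, 7.69 and 7.05 CPM in vehicle mice and 3.49, 2.34, 5.90 and 5.98 CPM in INT-767 mice. INT-767 mice 1 and 2 were below the vehicle range and INT-767 mice 3 and 4 inside it, with a log2 fold change of −0.68 ± 0.28 (SE, edgeR adjusted p = 0.119, exact Mann-Whitney p = 0.0727).

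Mmp19, a secreted MMP that cleaves basement membrane proteins, was the exception in direction. Its level was 35.4, 52.0, 48.1, 44.6, 42.2, 44.6 and 39.6 CPM in vehicle mice and 58.5, 50.3, 45 and 37.4 CPM in INT-767 mice. INT-767 mouse 1 was above and vehicle mouse 1 below the range of the other group, the remaining mice overlapped, and the vehicle SD was 5.43 CPM around a mean of 43.8 CPM. The log2 fold change was 0.13 ± 0.15 (SE, edgeR adjusted p = 0.559, exact Mann-Whitney p = 0.412), and it turned to −0.07 with scaling by library size only, which moved the median of all genes to −0.22. Exons of Tmem198b and Gm47093 on the opposite strand cover 28.3% of the exon bases of Mmp19, and Tmem198b averaged 3.65 ± 1.16 CPM in vehicle mice (SD, n = 7).

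**Figure D2:**
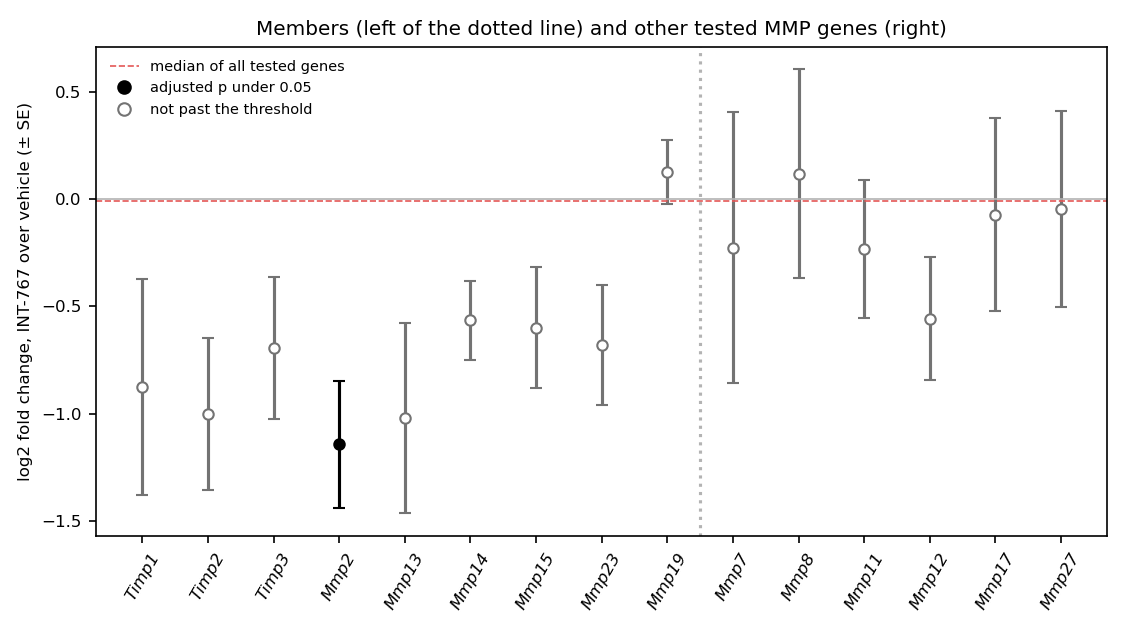
Log2 fold change of INT-767 over vehicle from the edgeR fit (vertical axis, ± SE) for the 9 tested members, left of the dotted line, and the 6 other tested MMP genes. The filled point, Mmp2, is the only one with an adjusted p below 0.05, and the dashed red line is the median of all tested genes at −0.01.

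Per exon length, Timp2 was the most abundant member in vehicle livers (17.2 ± 5.71 RPKM, SD, n = 7), followed by Mmp19 (12.4 ± 1.54), Mmp14 (11 ± 2.22), Mmp15 (9.58 ± 2.90), Mmp2 (7.53 ± 2.39), Timp3 (7.26 ± 2.4) and Timp1 (6.13 ± 1.84). Each of these differed from the next by less than their spread. Mmp23 (3.03 ± 0.770 RPKM), Mmp13 (0.648 ± 0.301) and Mmp9 (0.183 ± 0.102) came last, and from Timp1 down each step was larger than the SDs of the neighbours. In INT-767 livers Mmp19 ranked first (13.5 ± 2.51 RPKM, SD, n = 4), ahead of Timp2 (8.60 ± 4.79) and Mmp14 (7.41 ± 1.13), although the first pair of this order overlapped within the SD. Mmp15 (6.32 ± 2.14), Timp3 (4.50 ± 2.25), Mmp2 (3.43 ± 1.46), Timp1 (3.22 ± 3.70) and Mmp23 (1.89 ± 0.773) followed, each overlapping with the next, and Mmp13 (0.302 ± 0.142) and Mmp9 (0.0614 ± 0.0605) were again lowest.

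**Figure D3:**
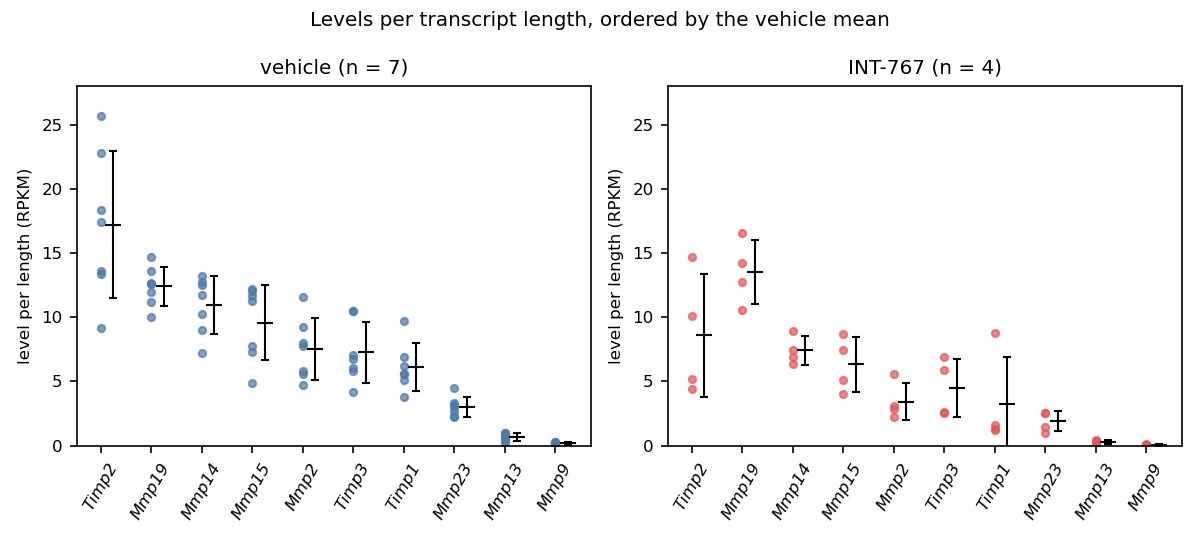
Level of each member per exon length (RPKM, vertical axis from 0) in vehicle (left, n = 7) and INT-767 mice (right, n = 4); points are mice and black bars mean ± SD, and the genes are in the order of the vehicle mean. Timp2 led in vehicle livers at 17.2 RPKM and Mmp19 in INT-767 livers at 13.5 RPKM.

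The 3 inhibitors together amounted to 23.1 to 41.3 RPKM in vehicle mice (median 28.9) and to 17.3, 8.23, 23.2 and 16.5 RPKM in INT-767 mice 1 to 4. The 7 member proteases amounted to 31.5 to 53.5 RPKM (median 46.8) and to 37.9, 29.1, 37.4 and 27.3 RPKM. Transcript of these 7 proteases exceeded that of the 3 inhibitors 1.26 to 1.63 times in vehicle mice (median 1.51), and 2.19, 3.54, 1.61 and 1.65 times in INT-767 mice. INT-767 mice 1 and 2 were thus above all vehicle mice, INT-767 mouse 4 slightly so, and INT-767 mouse 3 within their range. Mmp19, which was not lower, is part of the numerator. MMPs outside the members are not, although Mmp7 alone averaged 44.8 ± 33.1 RPKM in vehicle and 38.3 ± 34.0 RPKM in INT-767 mice (SD). Mmp7 was highest in vehicle mice 1 and 7 and INT-767 mouse 4, so the order of mice given here is for the member proteases only. Timp2 made up 39.9% to 63.6% of inhibitor transcript in vehicle mice, and 58.4%, 53.8%, 63.4% and 31.3% in INT-767 mice. Timp1 made up 53.0% in INT-767 mouse 4 and 6.82% to 15.1% in the other INT-767 mice. These sums are given as a description and were not tested.

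The members varied between mice in more than 1 pattern. Over the 11 mice, Pearson's r of log2 CPM with Timp2 was 0.98 for Timp3, 0.94 for Mmp2, 0.90 for Mmp14 and 0.90 for Mmp15, and over the 7 vehicle mice alone it was 0.97, 0.88, 0.84 and 0.94. Timp1 did not follow Timp2, with r of 0.19 over all mice and −0.58 in vehicle mice. The r of Timp1 with Mmp13 was 0.64 over all mice and 0.65 in vehicle mice, and with Mmp12, outside the members, 0.78 and 0.74. The patterns were not fully separate, since Mmp23 had r of 0.62 with Timp1 and 0.73 with Timp2 over all mice. In vehicle mice these were −0.28 and 0.63. These values describe the likeness of the profiles and share library effects: for Timp2, Timp3, Mmp14 and Mmp15, the lowest pair of vehicle mice was the pair whose levels fell with transcript length, mice 1 and 7, and the lowest pair of INT-767 mice was likewise 2 and 4.

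The comparison was therefore repeated within each set of libraries, a choice made after seeing the data. In the 5 vehicle and 2 INT-767 libraries whose levels rose with transcript length, Timp1 (−1.98, edgeR adjusted p = 0.00438) and Mmp14 (−0.55, edgeR adjusted p = 0.0362) were called lower. This set leaves out INT-767 mouse 4, so its Timp1 call is not separate from the call without that mouse. Mmp2 was at −0.96 (edgeR adjusted p = 0.0843) and Timp2 at −0.66 (edgeR adjusted p = 0.0851). In the 2 vehicle and 2 INT-767 libraries whose levels fell, Timp2 was called lower (−1.28, edgeR adjusted p = 0.0404), and Mmp2 was at −1.20 (edgeR adjusted p = 0.0573), Mmp14 at −0.34 and Timp1 at −0.53. In the rising and the falling libraries Mmp13 was at −0.54 and −1.78, and Timp3 at −0.34 and −0.998, called in neither. Differences between the sets were not tested for any member. With an offset that removes the trends on GC content and length, Mmp2 stayed called (−0.97, edgeR adjusted p = 0.0229), Mmp13 was added (−1.28, edgeR adjusted p = 0.0492) and Mmp15 moved to −0.23.

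**Figure D4:**
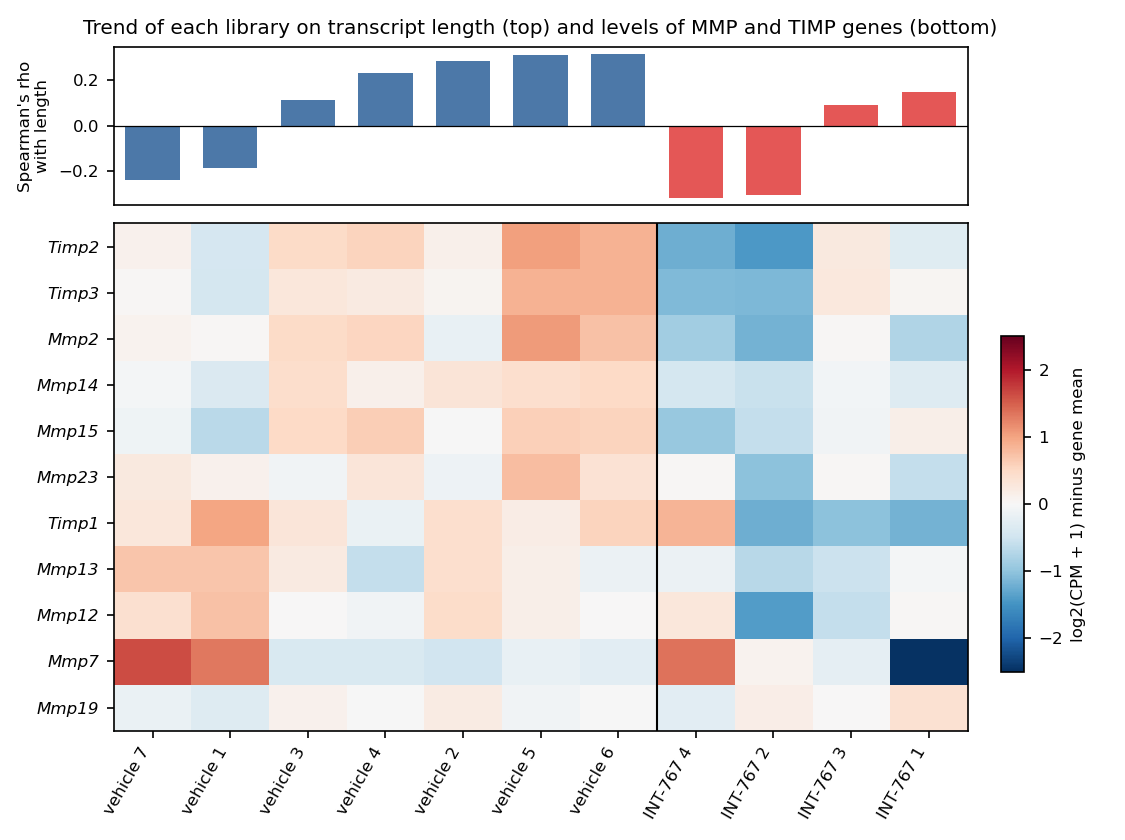
Top, Spearman's rho across genes between transcript length and the level of each library relative to the mean of all libraries; bottom, log2(CPM + 1) of 11 MMP and TIMP genes minus the mean of the gene over the libraries, as color. Libraries are sorted by rho within vehicle (left of the line) and INT-767. Among the INT-767 mice, Timp2, Timp3, Mmp2, Mmp14 and Mmp15 were lowest in mice 2 and 4, whereas Timp1 and Mmp7 were high in INT-767 mouse 4.

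For the 3 members with the smallest p, Mmp2, Mmp14 and Timp2, the tested genes outside the family with the most similar profile were listed. For Mmp2 these were Smo (r = 0.98), the receptor component of Hedgehog signaling, Spats2l (r = 0.98) and Ptpn14 (r = 0.97), a tyrosine phosphatase. For Mmp14 they were Commd10 (r = 0.98), Rassf4 (r = 0.98) and Rasa3 (r = 0.96), a GTPase-activating protein. For Timp2 they were Ttyh3, Rnpep and Dnmt1, the maintenance DNA methyltransferase, all with r = 0.99. All are Pearson's r of log2 CPM over 11 mice, chosen as the highest among all tested genes.

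The upstream sequence of 3 members is shown because their profiles differed: Timp1 and Mmp13, which varied apart from Timp2, and Mmp14, which varied with it. Each is the 250 bases before the RefSeq start site on GRCm38.p6, plus strand, 5′ to 3′, with matches to the searched motifs in capitals. They are chrX:20869916-20870165 for Timp1, chr9:7272264-7272513 for Mmp13 and chr14:54431348-54431597 for Mmp14.
Timp1: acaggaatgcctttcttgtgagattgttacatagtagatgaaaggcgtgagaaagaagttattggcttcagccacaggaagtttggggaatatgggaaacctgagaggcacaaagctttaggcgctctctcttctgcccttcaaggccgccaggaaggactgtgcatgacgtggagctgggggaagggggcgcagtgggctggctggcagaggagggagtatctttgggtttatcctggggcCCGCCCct
Mmp13: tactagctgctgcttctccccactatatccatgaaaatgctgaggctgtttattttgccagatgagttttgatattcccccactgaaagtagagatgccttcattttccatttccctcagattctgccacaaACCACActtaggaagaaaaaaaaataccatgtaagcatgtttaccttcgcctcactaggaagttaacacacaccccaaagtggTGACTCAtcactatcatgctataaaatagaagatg
Mmp14: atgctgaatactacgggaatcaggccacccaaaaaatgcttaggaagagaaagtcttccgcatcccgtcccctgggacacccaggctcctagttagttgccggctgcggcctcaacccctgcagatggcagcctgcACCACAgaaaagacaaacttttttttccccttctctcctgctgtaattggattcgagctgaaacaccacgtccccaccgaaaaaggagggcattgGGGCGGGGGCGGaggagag
The motifs, searched on both strands, were the AP-1 site TGANTCA, the Sp1 GC box GGGCGG, the RUNX core TGTGGT and the FXR inverted repeat of AGGTCA with 1 base between. They occur in 6.75%, 32.7%, 14% and 0.00609% of the 32851 RefSeq windows of this length. Mmp13 held an AP-1 match that begins 35 bases before the start and a RUNX match at 118 bases, the latter on the minus strand. Mmp14 held adjacent GC boxes at 19 and 13 bases and a minus-strand RUNX match at 114 bases, and Timp1 held 1 minus-strand GC box at 8 bases. Of the 7 members with an entry, Timp2, Timp3 and Mmp15 also held a GC box and Mmp23 a RUNX match, and none held the FXR repeat. Mmp2, Mmp9 and Mmp19 had no entry. A match of letters is a description only and says nothing of binding in these livers.

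On GRCm38 with the GENCODE annotation used here, Mmp2 spans chr8:92827291-92853420 on the plus strand with 14 exon blocks. Timp1 spans chrX:20870166-20874735, Mmp14 chr14:54431612-54445364 and Mmp13 chr9:7272514-7283331, all on the plus strand, and Timp2 spans chr11:118301069-118355740 on the minus strand. No exon base of these 5 genes is shared with another annotated gene. The table gives 1 count per gene, so that exons and untranslated parts are not resolved.

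Among the 17 other MMP and TIMP genes, 6 could be tested and none was called in either direction (edgeR), and none had an unadjusted p below 0.05. Their median log2 fold change was −0.15. With the offset for GC content and length, 1 of these genes was called lower. Macrophage elastase, Mmp12, had 70.2, 58.3, 41.9, 39.2, 46.2, 42.4 and 55.7 CPM in vehicle mice and 42.9, 15.2, 27.4 and 51.5 CPM in INT-767 mice (−0.56 ± 0.29, SE, edgeR adjusted p = 0.187). INT-767 mice 2 and 3 were lowest and mouse 4 was within the vehicle range. Mmp11, the stromelysin-3 gene, was at −0.23 ± 0.32 (edgeR adjusted p = 0.614). Mmp7 (matrilysin), named after its values were seen, reached 88.1, 110 and 91.5 CPM in vehicle mice 1 and 7 and INT-767 mouse 4, against 5.52 to 37.0 CPM in the other 8 livers. Spp1 was highest in the same 3 livers (1304 to 1859 CPM against 319 to 775 CPM), but the other 7 cholangiocyte markers together were not, at 81.8, 99.8 and 57.6 CPM there against 33.2 to 84.8 CPM. The part of any cell type in the Mmp7 level was not tested. Of the 11 genes too low to test, Mmp1a and Mmp1b had no count in any library, and Mmp3, Mmp10, Mmp16, Mmp20, Mmp21, Mmp24, Mmp25, Mmp28 and Timp4 had 2 to 66 counts in all. In Mmp24, named after its values were seen, all INT-767 mice (0.127 to 0.281 CPM) lay below all vehicle mice (0.366 to 0.726 CPM), on 46 counts in all.

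Of 21 tested genes that activate or restrain MMPs, 2 rose and 1 fell, a share not far from the 9.72% over all genes, with a median of −0.21. With 1 mouse left out, 0 to 5 were called higher and 0 to 3 lower, and none without INT-767 mouse 2. Tfpi2, an inhibitor of plasmin and other serine proteases, rose from 36.0 ± 12.4 to 77.0 ± 21.9 CPM (SD, log2 fold change 1.10 ± 0.24 SE, edgeR adjusted p = 0.0196), and F2, prothrombin, rose by 0.56 ± 0.15 (edgeR adjusted p = 0.0383). Plaur, the urokinase receptor, fell by 1.22 ± 0.28 on the log2 scale (edgeR adjusted p = 0.0223), and all 4 INT-767 mice were below all vehicle mice.

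The related ADAM and ADAMTS proteases had 4 of 19 tested genes called lower and none higher, against 4.68% and 5.04% of all tested genes, with a median of −0.56. Adam8, a leukocyte protease, fell from 9.62 ± 3.53 to 2.17 ± 0.721 CPM (log2 fold change −2.12, edgeR adjusted p = 0.00573). Adamts14 and Adamts2, which trim procollagen, fell by 2.05 and 1.26 on the log2 scale (edgeR adjusted p = 0.0103 and 0.0371), and Adamts9, a proteoglycanase, fell by 1.36 (edgeR adjusted p = 0.0191). In each of these 4 genes, which were named for their small p, all INT-767 mice lay below all vehicle mice, as in 3.65% of all tested genes. With 1 mouse left out the calls ranged from 2 (without INT-767 mouse 2) to 5 (without INT-767 mouse 1).

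Matrix genes, listed as possible protease substrates, had medians further below 0 than the members, a difference that was not tested. Cleavage of each product by a member protease was not examined. Among 17 interstitial matrix genes 5 were called lower and none higher, against 4.68% and 5.04% of all tested genes, with a median of −1.10. Col1a1 and Col1a2, the chains of type I collagen, had log2 fold changes of −2.96 ± 0.74 and −2.35 ± 0.57 (SE, edgeR adjusted p = 0.0297 and 0.0272), Col6a3 one of −1.68 and elastin, Eln, one of −1.44 (edgeR adjusted p = 0.0408 and 0.0282). Among 17 basement membrane genes 7 were called lower and none higher, against the same shares of all tested genes, with a median of −1.02 and all 17 below 0. Col4a1 fell from 125 ± 31.3 to 51.1 ± 22.3 CPM (log2 fold change −1.29, edgeR adjusted p = 0.0234), and Col15a1, Lama5 and Sparc, a collagen-binding glycoprotein, had log2 fold changes of −1.41, −1.78 and −1.02 (edgeR adjusted p = 0.0253, 0.0261 and 0.0337). The counts depend on single libraries: with 1 mouse left out, interstitial calls ranged from 0 (without INT-767 mouse 2 or vehicle mouse 5 or 6) to 11 (without vehicle mouse 1), and basement membrane calls from 0 (without INT-767 mouse 2) to 12 (without vehicle mouse 1). Filter and method moved them as well. Interstitial and basement membrane calls were 1 and 6 when every gene with at least 1 count was fitted. They were 8 and 9 with library size only, 11 and 12 with DESeq2, and 13 and 11 with limma-voom sample weights.

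Marker genes of liver cell types were read in the same fit, where 4.68% of all tested genes were called lower and 5.04% higher. The most abundant gene of each list is given by its mean CPM over all 11 mice. Of the 7 tested myofibroblast markers 2 fell, Loxl2 (−1.63, edgeR adjusted p = 0.0168) and Col1a1, which was their most abundant gene and is also counted above. Of 11 quiescent stellate cell markers only Pdgfrb fell (−1.31, edgeR adjusted p = 0.0302), and Reln was the most abundant. Of 12 macrophage markers Csf1r (−1.14) and Cd68 (−1.16) fell (edgeR adjusted p = 0.00498 and 0.00944), while the most abundant, Lyz2, averaged 282 CPM in vehicle and 214 CPM in INT-767 mice. Of the 3 tested neutrophil markers Csf3r fell (−1.49, edgeR adjusted p = 0.0174), while S100a8 and S100a9 had log2 fold changes of 0.31 and 0.46 (edgeR adjusted p = 0.679 and 0.572). S100a9 was the most abundant over all mice, although Csf3r exceeded it in vehicle mice (5.87 against 4.08 CPM). Of 8 cholangiocyte markers Cldn4 fell (−1.29, edgeR adjusted p = 0.0245), with Spp1 the most abundant. Of 10 hepatocyte markers only Ass1, a urea cycle enzyme, was called, and it rose (1.31, edgeR adjusted p = 0.00450). None of 10 sinusoidal endothelial, 7 lymphocyte or 4 mesothelial markers was called (edgeR). The smallest p values among them were those of Stab1 (−1.39, edgeR adjusted p = 0.0739, also the most abundant endothelial marker) and Stab2 (−0.97, 0.110), Cd3e (−1.34, 0.0736) and Cd79b (−1.10, 0.105, the most abundant lymphocyte marker), and Upk3b (1.43, 0.0800) and Wt1 (−0.21, 0.755), with Gpm6a the most abundant mesothelial marker. With 1 mouse left out, the myofibroblast calls went to 1 without vehicle mouse 3, 4, 5 or 6 and to 0 without INT-767 mouse 2, and the stellate cell call was lost without each of these 5 mice and without INT-767 mouse 4. The neutrophil and cholangiocyte calls were lost without INT-767 mouse 2. Cholangiocyte calls otherwise reached 3 (without INT-767 mouse 3), macrophage calls ranged from 2 to 5 (without INT-767 mouse 4) and hepatocyte calls from 1 to 4 (without INT-767 mouse 4). Sinusoidal endothelial markers had 2 calls lower without vehicle mouse 1 and 1 without INT-767 mouse 1, and mesothelial markers had 1 call higher without vehicle mouse 5. The part of cell composition in the member levels was not tested.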

How the data were processed

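RNA from 11 livers was made into stranded poly(A) libraries and sequenced on a NextSeq 500, and per the labels the reads were aligned with STAR (2.4.0 in the submitters' processing notes, while the study's methods name a later version) to GRCm38. The authors deposited raw counts per gene. No source used here names the counting program or its strand setting. Groups came from the sample labels. Each sample was taken as 1 mouse.

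Counts of all 46603 genes, 27306 with a count, were tested in edgeR 4.0.16 (R 4.3.3) by its quasi-likelihood test, with TMM scaling, filterByExpr (10 counts, at least 4 mice, 15 counts in total), robust dispersion and Benjamini-Hochberg adjustment over the 13880 genes kept, at 0.05. Two-sided exact Mann-Whitney tests on CPM enumerated all 330 assignments. RPKM used the union of GENCODE M21 exons, with 46091 genes matched by identifier, and sequences came from RefSeq. Library depth and counting error limit Mmp9, Mmp13 and Timp1 most. No libraries were copies of each other.

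Alternatives were other scalings and filters, limma-voom 3.58.1, DESeq2 1.42.0, an offset for GC content and length, a replicate block, each mouse left out and, chosen after seeing the data, libraries split by their trend on transcript length. On simulated data for this comparison (13716 genes, of which 200 carried a log2 change of 2) the edgeR test found 89% and called 8 others. That change is larger than the one of any tested member. Genes were also drawn independently, without the library trends on length and GC content. The 89% is therefore not the share of changes as small as those of the members that the test would find. The members and gene lists were chosen with earlier results of these data known. Named were all members, in each other list up to 4 called genes of smallest p or otherwise the 2 of smallest p, the 3 genes most like each of the 3 members of smallest p, and the most abundant gene of each cell type list. Figures used Python 3.11.15 and matplotlib 3.10.9.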

Additional observations from a re-analysis of the deposited data

Results flagged for a closer look

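Timp1 in INT-767 mouse 4, at 7.78 CPM, stood far from the other INT-767 mice, whose levels were 1.10 to 1.41 CPM. The gap to the nearest of them was 0.955 of the range of the group (Dixon's test for outliers). This was the only such value among the 20 groups of levels examined, and chance alone gives about 1 in 20.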

How the results depend on the processing

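Every tested member but Mmp19 kept a negative log2 fold change under all alternatives, and Mmp19 was reversed to −0.073 only by scaling on library size. Members called lower numbered 1 in the reported fit and 2 with library size only (Mmp2 and Mmp14), 2 with upper-quartile factors, 2 with the GC content and length offset, 3 with DESeq2, 4 with limma-voom sample weights, 2 in the libraries rising with transcript length and 1 in those falling. Genes called higher and lower overall were 700 and 649 in the reported fit, 332 and 1026 with library size only, 467 and 812 with upper-quartile factors, 1658 and 1219 with voom weights, 1443 and 1368 with DESeq2, 1074 and 811 with the offset, 856 and 879 in the rising and 130 and 94 in the falling libraries; the cause was not tested, except that the last rest on 4 libraries. With every gene of at least 1 count they were 502 and 464, and with at least 10 counts in every mouse 537 and 532, where Timp1 and Mmp13 could not be fitted. Leaving out 1 mouse at a time gave 164 to 1906 genes called higher, 110 to 1370 lower, and 0 to 3 members lower, none higher. The lowest counts came without INT-767 mouse 2 and the highest without vehicle mouse 1. Members with an exact Mann-Whitney p under 0.05 were 3 in the reported form, 6 with library size only and 1 to 4 with 1 mouse left out. Of 672 counts of calls recomputed in the lists, 542 stayed within 1.5 times and 130 moved. With DESeq2, for example, 6 macrophage markers were called lower and 5 hepatocyte markers higher, in place of 2 and 1. Of the genes that activate or restrain MMPs it called 5 higher and 6 lower, in place of 2 and 1. The ADAM and ADAMTS calls stayed at 4.

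The labels number the mice in both groups. Deviations of same-numbered mice from their group means had no common direction (r of −0.73, 0.24, 0.21 and −0.52). These values carry the library trends and were not set against pairs of different numbers, so they cannot decide whether same-numbered mice share a batch. With the replicate block 0 genes were called higher and 0 lower and 0 members lower, also with the offset, and Mmp2 was at −0.98 (edgeR adjusted p = 0.356) and −0.86 (0.253).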
